A study of Mus musculus with 5 samples.

Results

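Collagen chain genes, the genes whose symbols are Col, a type number, the letter a and a chain number, were described in mouse neural stem cells (NSCs) and in STO cells. The symbol rule found 44 genes among 25414 genes in the deposited RNA-seq tables, with 60 RefSeq transcripts between them. NSCs were primary cells from the cortex of E12.5 mouse embryos, grown for 5 to 8 passages without feeder cells on dishes coated with poly-L-ornithine and laminin, in a medium with epidermal growth factor, basic fibroblast growth factor, heparin and B27, and 2 replicates were sequenced. The STO line is a thioguanine- and ouabain-resistant line of SIM mouse embryonic fibroblasts, a common feeder layer for stem cells, and 3 replicates of it, grown past 30 passages in DMEM with fetal bovine serum, were sequenced. The study used them as the somatic cells beside stem cells in a comparison of genome folding. The labels give C57BL/6 as the strain of both and no genetic change or drug for either. STO is 1 line, and the replicates of each cell type are not stated to be separate cultures, so a p-value here measures the spread between these samples only, which may be technical. Levels are FPKM, fragments scaled to transcript length and to the mapped fragments of a sample. As length is divided out, they can be set roughly side by side between genes, although errors in assigning fragments to transcripts remain. Ratios between genes are of RNA, not of protein chains.

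A collagen is made of chains wound in threes into a triple helix, and each helical stretch needs glycine once in each triplet of residues, always at the same place. Fibrillar chains have a single long helix and pack into the striped fibrils of skin, bone, tendon and cartilage, network chains have interrupted or short helices and form sheets such as the basement membrane, and FACIT chains have short helices broken by hinges and sit on the surface of fibrils. The remaining chains form beaded filaments (type VI), anchoring fibrils (type VII), transmembrane collagens and multiplexins, which carry glycosaminoglycan and occur in basement membranes. Connective tissue fibroblasts are the classic source of fibrillar collagen, whereas in the embryonic brain collagens are known mainly from the basement membranes of the meninges and vessels.

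The regular glycine spacing can be read in the coding sequence. Both stretches below are taken from the GENCODE vM1 coding sequences (NCBIM37 build, the same assembly as mm9), are in frame and are 54 bases long, and the capitals mark glycine codons that open a triplet of codons. The first is the start of the longest run of Col3a1, at codon 164, and the second is from Col18a1, from codon 1034, and spans the end of its longest run. They are shown because Col3a1 was listed at 0 in NSCs and Col18a1 was the leading collagen there. For each gene the longest in-frame coding sequence was read, which need not belong to the transcript that carried the signal.
Col3a1: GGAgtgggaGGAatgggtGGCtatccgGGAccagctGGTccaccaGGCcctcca
Col18a1: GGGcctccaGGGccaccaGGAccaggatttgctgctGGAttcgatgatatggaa

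Of the 44 genes, 43 had a coding sequence under the same symbol, and Col26a1 had none. The longest unbroken run of triplets that each open with a glycine codon was 216 to 344 triplets in the 11 fibrillar genes (median 338), with the lowest values in Col24a1 (216) and Col27a1 (217). It was 39 to 66 triplets in the 9 network genes (median 45), 32 to 113 in the 9 FACIT genes (median 57) and 28 to 87 in 14 genes of the other classes (median 43.5). Thus no fibrillar gene overlapped any gene of another class. The network genes held 5 to 24 separate runs of 3 or more triplets against 2 to 5 in the fibrillar genes. Col4a1 had 17 such runs and Col18a1 had 14, whereas Col3a1 had 2. Col24a1 and Col27a1 each had 3, which together held 327 and 329 triplets, against 357 in Col3a1.

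**Figure D1:**
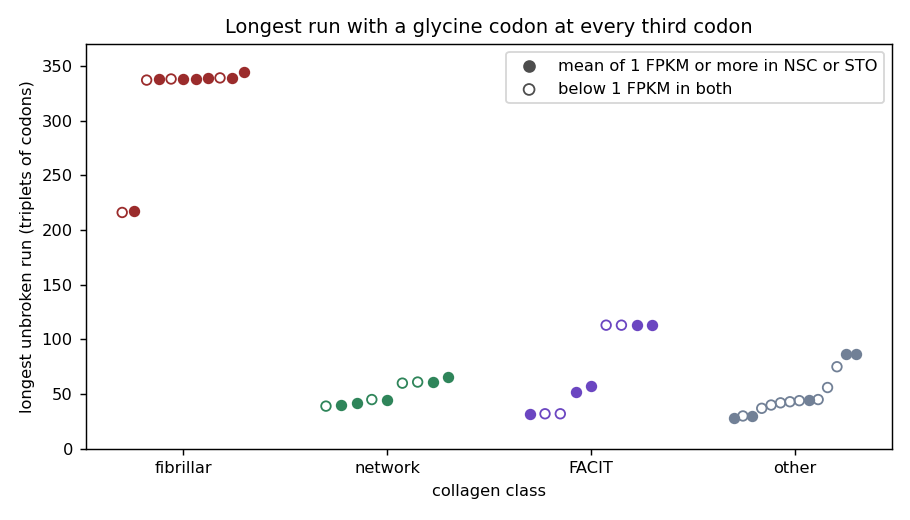
Longest unbroken run of codon triplets that each open with glycine (y axis, number of triplets) for 43 collagen genes by class (x axis), 1 point a gene, ordered by length within a class and filled where the mean FPKM was 1 or more in NSCs or STO cells. Fibrillar genes lie at 216 or more, every other gene at 113 or less, and filled and open points are mixed within each class.

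The listed neural stem cell markers were higher in NSCs and the tested fibroblast markers were higher in STO cells. Astrocyte markers were higher in NSCs too, and endothelial and microglial markers were near 0 there. The neural stem cell marker Nes was at 176 and 169 FPKM in NSCs and at 0.0724, 0.0442 and 0.0380 in STO cells. Sox2 (308 and 276), Olig2 (499 and 493) and Pax6 (5.04 and 5.22) were present in both NSC replicates and listed at 0 in all STO replicates. Of 7 fibroblast markers, 6 were tested and all 6 were higher in STO cells in the limma fit described below. Over all genes tested, 41.9% were higher there. Pdgfrb, Thy1, Dcn and Twist1 were below a mean of 1 FPKM in NSCs and were tested only through their STO level. The 7 fibroblast markers summed to 1021 to 1060 FPKM in STO cells and to 35.3 and 35.5 in NSCs. Of the NSC sums, Pdgfra, also a marker of oligodendrocyte precursors, gave 30.1 and 30.4 and Fn1 gave 3.80 and 4.09. Dcn was listed at 0 in both NSC replicates, and Pdgfrb, the mural cell and fibroblast receptor, was at 0.0161 and 0.0529. Lum was also listed at 0 in both, but was only at 0.278, 0.280 and 0.224 in STO cells, so its 0 says little. The 5 endothelial markers summed to 0.510 and 0.540 in NSCs, with Pecam1 at 0.0420 and 0.0575, and the 4 microglial markers to 0.0390 and 0. The 5 pericyte and meninges markers summed to 45.6 and 48.4 in NSCs against 14.5 to 15.7 in STO cells. In NSCs that sum was made mainly by Cspg4 (24.8 and 26.3), also an oligodendrocyte precursor gene, and Zic1 (20.4 and 16.6), with Foxc1 at 2.87 and 2.48 and Foxd1 listed at 0. The astrocyte marker Gfap, which the paper used as a negative control for its NSCs, was at 15.9 and 16.9 in NSCs. The 4 astrocyte markers summed to 70.4 and 71.4 there. The part of meningeal, mural or astrocyte-like cells in the collagen levels of NSCs was not tested. Replicates correlated at 0.994 (NSC) and 0.994 to 0.995 (STO) over 11712 genes on the log2(FPKM + 1) scale, against 0.578 to 0.585 between cell types.

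STO cells carried more collagen message than NSCs and a different set of leading chains. FPKM of the 44 genes summed to 151 and 149 in NSCs and to 1535, 1536 and 1449 in STO cells, with means of 149.9 ± 1.40 (SD, n = 2) and 1507 ± 49.8 (SD, n = 3). Every STO replicate lay above both NSC replicates. As a share of all FPKM, collagens made up 0.0341% and 0.0334% in NSCs and 0.387%, 0.398% and 0.362% in STO cells. In bulk samples such as these, fewer cells that express a gene and less RNA of it per cell cannot be told apart.

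Fibrillar chains held most of the collagen FPKM in STO cells, and the multiplexin Col18a1 led in NSCs. The fibrillar sum was 20.5 and 21.9 FPKM in NSCs and 1114, 1114 and 1034 in STO cells, or 13.6% to 14.7% against 71.3% to 72.6% of collagen FPKM. Network chains summed to 23.3 and 23.9 in NSCs and to 129, 126 and 122 in STO cells, and FACIT chains to 26.9 and 26.8 against 72.3, 76.0 and 72.3. All 3 sums were higher in every STO replicate, but the shares of network chains (15.4% to 16.0% in NSCs, 8.22% to 8.40% in STO cells) and FACIT chains (17.85% to 17.98%, against 4.71% to 4.99%) were lower in STO cells. Chains of the other classes held 51.3% to 53.2% in NSCs, where Col18a1 alone gave 46.4% and 45.4%, and 14.3% to 15.3% in STO cells, where the type VI chains made up nearly all of them. The leading genes were Col18a1, Col11a1 and Col16a1 in both NSC replicates, together 65.1% and 65.2%. In all 3 STO replicates they were Col1a2, Col3a1 and Col1a1, together 62.5% to 64.1%.

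**Figure D2:**
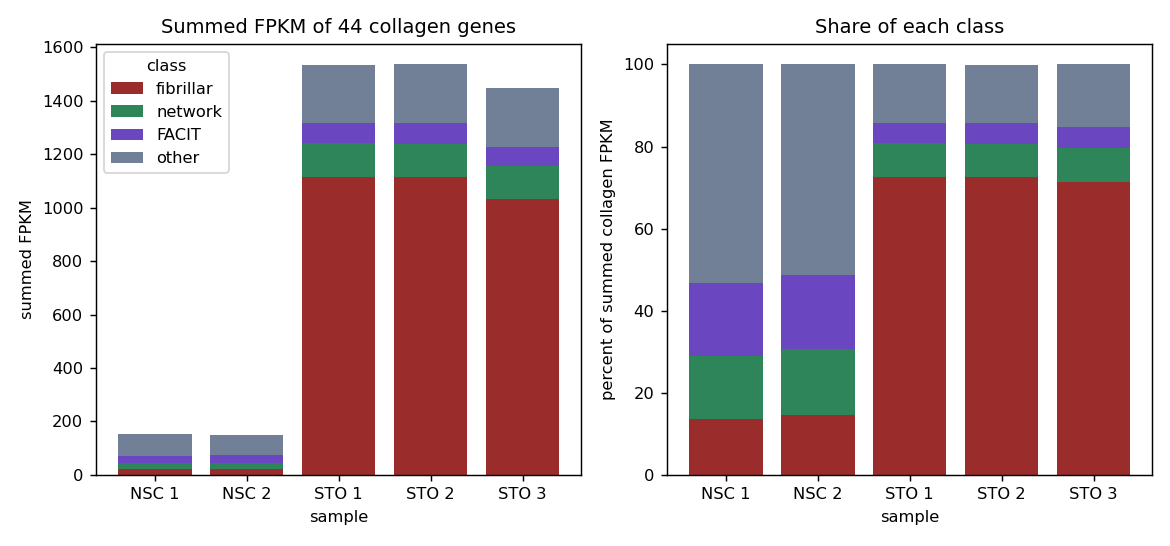
Summed FPKM of the 44 collagen genes in each sample (left, y axis from 0) and the percent of that sum in each class (right), for 2 NSC and 3 STO replicates, with bars stacked by class. Sums are 149 and 151 in NSCs and 1449 to 1536 in STO cells, and the fibrillar part grows from under 15% to over 71%.

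By the level of 1 FPKM on average in NSCs or STO cells, 23 of the 44 genes were expressed, 15 in NSCs, 18 in STO cells and 10 in both. At 10 FPKM or more there were 4 in NSCs and 14 in STO cells. The 23 genes were tested with limma over all 12292 genes that reached this level, and 16 were higher and 7 lower in STO cells at a Benjamini-Hochberg adjusted p under 0.05. Over all genes tested, 85.6% passed, 41.9% higher and 43.7% lower in STO cells, so a call by itself set the collagens apart little. A collagen that reached the level only through the cell type where it was high had to differ. FPKM did not overlap between the cell types for any of the 23, as for 89.9% of all genes tested. An absolute log2 difference of 1 or more beside the adjusted p was reached by 20 of the 23 (13 higher and 7 lower in STO cells), against 38.4% of all genes tested. The median absolute difference on the log2(FPKM + 1) scale was 3.36 in the 23 collagens and 0.74 over all genes, and the signed medians were 1.92 and -0.02. Differences are given below as STO minus NSC on that scale, with their standard error (SE), and folds are ratios of mean FPKM.

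**Figure D3:**
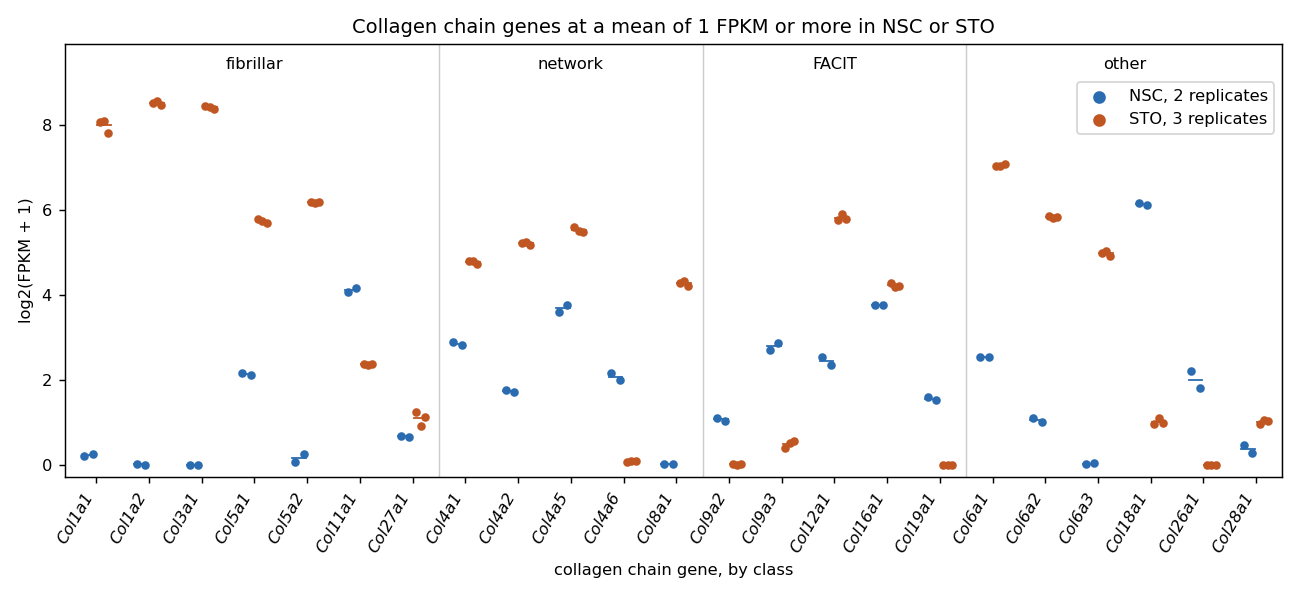
log2(FPKM + 1) (y axis) of the 23 collagen genes at a mean of 1 FPKM or more in NSCs or STO cells, by class, with 1 point a replicate (2 NSC, 3 STO) and a short line at the mean. Type I, III, V and VI chains are high in STO cells, and Col11a1, Col4a6, Col9a2, Col9a3, Col19a1, Col18a1 and Col26a1 are the 7 genes higher in NSCs.

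Type I and type III, the main fibril formers of soft connective tissue, had the largest differences of the tested collagens on the log2(FPKM + 1) scale. Col1a2 (chromosome 6, 4455618 to 4491543 in mm9) was at 0.00609 and 0 FPKM in NSCs and at 365, 374 and 353 in STO cells. Col3a1 (chromosome 1, 45368383 to 45406551) was listed at 0 in both NSC replicates and stood at 349, 339 and 329.7 in STO cells. The chain that joins Col1a2 in type I collagen, Col1a1 (chromosome 11, 94797538 to 94814356), was at 0.150 and 0.196 in NSCs and at 268, 272 and 222 in STO cells. All 3 were abundant in every STO replicate, at ranks 141 (Col1a2), 151 (Col3a1) and 212 (Col1a1) among all genes by mean FPKM, and were near or at 0 in every NSC replicate. The deposited confidence interval of the Col1a2 value in NSC replicate 1 was that of a single fragment. The log2 differences were 8.51 (SE 0.050, limma adjusted p = 3.5e-09) for Col1a2, 8.41 (SE 0.050, limma adjusted p = 3.5e-09) for Col3a1 and 7.76 (SE 0.098, limma adjusted p = 9.0e-09) for Col1a1. Type I collagen usually holds more Col1a1 than Col1a2 chains, while the FPKM ratio of Col1a1 to Col1a2 in STO cells was 0.734, 0.729 and 0.629, or 0.698 ± 0.0592 (SD, n = 3). Col3a1 to Col1a2 was 0.932 ± 0.0248 (SD, n = 3).

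Among the type V and type XI chains, which start fibrils and limit their width, Col5a1 and Col5a2 were higher and Col11a1 was lower in STO cells. Col5a2 (chromosome 1, 45431176 to 45560127) was at 0.0336 and 0.180 FPKM in NSCs and at 71.6, 70.3 and 71.2 in STO cells, a difference of 6.03 (SE 0.069, limma adjusted p = 7.2e-09). Col5a1 (chromosome 2, 27741945 to 27895030) was present in both cell types, at 3.42 and 3.29 in NSCs and at 54.2, 52.6 and 50.7 in STO cells, 15.6-fold higher (difference 3.62, SE 0.054, limma adjusted p = 1.5e-08). Col11a1 (chromosome 3, 113733458 to 113923674), best known from cartilage, was the fibrillar gene with the highest level in NSCs. Its values were 15.6 and 16.9 there and 4.18, 4.05 and 4.19 in STO cells, 3.94-fold lower (difference -1.75, SE 0.058, limma adjusted p = 5.0e-07). It was the only fibrillar gene of the 7 tested that was lower in STO cells. Accordingly the ratio of Col11a1 to Col5a1, which can share a trimer, was 4.56 and 5.15 in NSCs and 0.0770, 0.0771 and 0.0826 in STO cells.

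Col27a1 (chromosome 4, 62876446 to 62996024) is a fibrillar gene with a longest glycine run of 217 triplets. It was low throughout, at 0.604 and 0.574 FPKM in NSCs and 1.36, 0.882 and 1.15 in STO cells. The groups did not overlap and differed by 0.42 (SE 0.096, limma adjusted p = 0.0064). The call was lost without NSC replicate 1 (0.43, limma adjusted p = 0.079) and without NSC replicate 2 (0.41, limma adjusted p = 0.091). The other fibrillar genes, Col2a1, Col5a3, Col11a2 and Col24a1, stayed below a mean of 1 FPKM in both and were not tested. Col5a3, the remaining type V chain, was at 0.390 and 0.380 in NSCs and at 0.0218, 0.0127 and 0.00476 in STO cells, opposite in order to Col5a1 and Col5a2. Col11a2, the other type XI chain in the set, was at 0.196 and 0.265 in NSCs and at 0.615, 0.421 and 0.489 in STO cells, opposite in order to Col11a1. Col2a1, the cartilage fibril chain, was at 0.0323 and 0.0294 in NSCs and at 0.648, 0.641 and 0.482 in STO cells. By the deposited estimates its NSC values came wholly from transcript NM_001113515 and its STO values wholly from NM_031163. Each NSC value corresponded to 3.8 fragments by its deposited interval, too few to compare isoforms between the cell types.

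The promoter windows of the leading fibrillar genes are printed below because these genes were near 0 in NSCs and among the most abundant messages in STO cells. Windows are from the RefSeq table of GRCm38.p6, run from 250 bases before to 30 after the annotated start, on the strand of the gene, and their coordinates belong to that build, not to mm9. Capitals mark 3 motifs that were searched on both strands, so that their reverse complements are in capitals too. The TATA box was searched as TATAAA. The CCAAT box was searched by the letters of its name. The GC box was searched as GGGCGG.
Col1a2 (chr6:4505368-4505647, plus strand): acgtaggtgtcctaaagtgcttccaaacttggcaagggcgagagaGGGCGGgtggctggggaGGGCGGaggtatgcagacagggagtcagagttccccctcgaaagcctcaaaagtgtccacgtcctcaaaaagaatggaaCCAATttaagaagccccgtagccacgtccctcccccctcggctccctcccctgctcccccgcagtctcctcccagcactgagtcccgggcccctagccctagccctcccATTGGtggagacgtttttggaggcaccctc
Col3a1 (chr1:45311288-45311567, plus strand): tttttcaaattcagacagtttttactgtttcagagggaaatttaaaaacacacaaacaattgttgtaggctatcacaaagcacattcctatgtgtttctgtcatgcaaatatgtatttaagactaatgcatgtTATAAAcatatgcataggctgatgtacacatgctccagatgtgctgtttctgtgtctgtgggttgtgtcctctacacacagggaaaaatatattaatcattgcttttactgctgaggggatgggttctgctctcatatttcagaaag

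The Col1a2 window holds 12 CpG dinucleotides, GC boxes 205 and 188 bases before the start and a CCAAT box 109 bases before it, with another CCAAT box on the other strand at the start. The Col3a1 window holds no CpG, has a GC content of 36.1%, and has TATAAA 117 bases before the start. Over 32851 windows of 27025 genes, TATAAA occurred in 13.1%, CCAAT in 36.1% and GGGCGG in 34.7%. Among 38 collagen windows of 35 genes, 5 held TATAAA (13.2%), 13 held CCAAT (34.2%) and 23 held GGGCGG (60.5%). The GC box was held by 10 of 14 windows of genes higher in STO cells and by 4 of 6 windows of genes lower there, so it did not divide the directions. The ratio of observed to expected CpG had a median of 0.442 in the collagen windows and 0.382 in all windows. The table holds no window for Col1a1, Col2a1, Col4a3, Col5a2, Col9a3, Col12a1, Col14a1, Col22a1 or Col26a1. These matches describe letters only.

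Of the network chains, Col4a1, Col4a2 and Col4a5 were expressed in both cell types and were higher in STO cells. Col4a1 (chromosome 8, 11198423 to 11312826), which pairs with Col4a2 in the common basement membrane protomer, was at 6.34 and 6.07 FPKM in NSCs and at 26.9, 26.6 and 25.5 in STO cells, 4.24-fold higher (difference 1.92, SE 0.053, limma adjusted p = 2.2e-07). Col4a2 (chromosome 8, 11312805 to 11449287) was at 2.39 and 2.26 in NSCs and at 36.2, 36.6 and 35.0 in STO cells, 15.5-fold higher (difference 3.48, SE 0.052, limma adjusted p = 1.6e-08). The loci of this pair overlap by 22 bases head to head, and the pair rose together but not by the same amount. The Col4a1 to Col4a2 ratio was 2.66 and 2.69 in NSCs and 0.741, 0.727 and 0.728 in STO cells, on either side of 1.

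Col4a5 and Col4a6, the second head-to-head pair of the family, went in opposite directions. They lie 1342 bases apart on chromosome X, Col4a6 at 137599946 to 137908619 and Col4a5 at 137909962 to 138123778 in mm9, and their chains can join in a protomer. Col4a5 was at 11.04 and 12.5 FPKM in NSCs and at 47.1, 43.97 and 43.6 in STO cells, 3.81-fold higher (difference 1.85, SE 0.071, limma adjusted p = 1.0e-06). Col4a6 was at 3.46 and 2.96 in NSCs and at 0.0467, 0.0524 and 0.0525 in STO cells, 63.6-fold lower (difference -2.00, SE 0.061, limma adjusted p = 3.4e-07). Both genes were clearly present in NSCs, whereas in STO cells only Col4a5 was above 1 FPKM. Their ratio was 3.19 and 4.23 in NSCs and 1009, 839.5 and 831 in STO cells. Within Col4a5, transcript NM_007736 was listed at 0 in both NSC replicates and in STO replicate 1 but at 8.17 and 6.91 in STO replicates 2 and 3, so the split between its isoforms varied among replicates of the same cell type. The neighbouring windows are printed below on the strand of each gene, with the same motifs in capitals.
Col4a5 (chrX:141475169-141475448, plus strand): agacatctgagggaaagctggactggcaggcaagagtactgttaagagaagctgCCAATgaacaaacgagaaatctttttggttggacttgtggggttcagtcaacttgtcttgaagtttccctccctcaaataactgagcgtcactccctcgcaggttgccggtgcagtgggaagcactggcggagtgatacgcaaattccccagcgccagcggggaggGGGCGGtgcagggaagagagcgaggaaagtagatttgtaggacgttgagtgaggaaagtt
Col4a6 (chrX:141474047-141474326, minus strand): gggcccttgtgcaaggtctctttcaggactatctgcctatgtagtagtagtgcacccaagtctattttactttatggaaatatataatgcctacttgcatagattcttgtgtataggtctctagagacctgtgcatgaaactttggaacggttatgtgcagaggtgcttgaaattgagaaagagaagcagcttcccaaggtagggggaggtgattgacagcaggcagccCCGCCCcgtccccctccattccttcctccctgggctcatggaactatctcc

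The Col4a5 window holds 11 CpG dinucleotides (observed to expected 0.613), a CCAAT box 196 and a GC box 30 bases before the start. The Col4a6 window holds 3 CpG dinucleotides (0.182) and a GC box 21 bases before the start.

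Col8a1 (chromosome 16, 57624369 to 57754850), a short network chain of vessel walls and the corneal endothelial membrane, was at 0.0124 and 0.0114 FPKM in NSCs and at 18.2, 18.9 and 17.5 in STO cells. Each NSC value corresponded to 2 fragments by its deposited interval, and the difference was 4.25 (SE 0.055, limma adjusted p = 1.0e-08). The remaining network genes, Col4a3, Col4a4, Col8a2 and Col10a1, reached at most 0.0651 FPKM in any sample. The type IV messages above 1 FPKM were thus Col4a1, Col4a2 and Col4a5 in both cell types, and Col4a6 in NSCs.

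FACIT chains moved in both directions. The tested type IX chains, which coat the fibrils of cartilage, were higher in NSCs. Col9a3 (chromosome 2, 180332927 to 180356890) was at 5.47 and 6.32 FPKM there and at 0.312, 0.421 and 0.470 in STO cells, 14.7-fold lower (difference -2.30, SE 0.078, limma adjusted p = 5.7e-07). Col9a2 (chromosome 4, 120712171 to 120727930) was at 1.15 and 1.03 in NSCs and at 0.0161, 0 and 0.0106 in STO cells (difference -1.05, SE 0.044, limma adjusted p = 1.6e-06). That call was lost after quantile normalization, with a difference of -0.25 and a limma adjusted p = 0.067. Col9a1 was below the level for testing, at 0.576 and 0.592 in NSCs and listed at 0 in all STO replicates. Col9a3 was thus 4.78 and 6.17 times Col9a2, and 9.51 and 10.7 times Col9a1, in the NSC replicates, although all 3 chains make up the usual type IX trimer.

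Col12a1 (chromosome 9, 79446794 to 79566529), a FACIT of type I fibrils in tendon and other dense tissue, was at 4.81 and 4.11 FPKM in NSCs and at 53.3, 58.1 and 54.1 in STO cells, 12.4-fold higher (difference 3.36, SE 0.075, limma adjusted p = 8.1e-08). Col16a1 (chromosome 4, 129725084 to 129776521) had the smallest fold between the cell types of the tested collagens. It stood at 12.6 in both NSC replicates and at 18.4, 17.2 and 17.5 in STO cells, 1.41-fold higher (difference 0.46, SE 0.053, limma adjusted p = 2.2e-04). Col19a1 (chromosome 1, 24264522 to 24594276), a FACIT of basement membrane zones known also from neurons, was at 1.99 and 1.85 in NSCs and listed at 0 in all 3 STO replicates (difference -1.55, SE 0.043, limma adjusted p = 2.2e-07). Col14a1, Col20a1 and Col22a1 were below the level for testing in both. Of the 9 FACIT genes, 2 were higher, 3 lower and 4 not tested.

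The type VI chains, which assemble into beaded filaments around cells, were high in STO cells for Col6a1, Col6a2 and Col6a3. Col6a1 (chromosome 10, 76171537 to 76188789) was at 4.77 and 4.75 FPKM in NSCs and at 129.8, 130.2 and 134 in STO cells, 27.6-fold higher (difference 4.52, SE 0.047, limma adjusted p = 5.7e-09). Col6a2 (chromosome 10, 76058501 to 76086375) was at 1.13 and 0.989 in NSCs and at 56.9, 55.3 and 55.8 in STO cells, 53.0-fold higher (difference 4.79, SE 0.054, limma adjusted p = 6.9e-09). Col6a3 (chromosome 1, 92663435 to 92740548) was at 0.00705 and 0.0187 in NSCs and at 30.5, 31.5 and 29.1 in STO cells (difference 4.95, SE 0.057, limma adjusted p = 7.3e-09). In NSCs Col6a3 was near 0, with a Col6a3 to Col6a1 ratio of 0.00148 and 0.00394, against 0.235, 0.242 and 0.217 in STO cells. The Col6a1 to Col6a2 ratio was 4.23 and 4.81 in NSCs and 2.28, 2.35 and 2.40 in STO cells. The later type VI chains Col6a4, Col6a5 and Col6a6, which can replace Col6a3, reached at most 0.0593 in any sample.

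Col18a1 (chromosome 10, 76514924 to 76629275), the multiplexin of basement membranes whose C-terminal fragment is endostatin, was the collagen with the highest FPKM in both NSC replicates. It was at 70.05 and 67.6 FPKM in NSCs, rank 1115 among all genes by mean FPKM, and at 0.923, 1.13 and 0.975 in STO cells, rank 10711. The fold was 68.3 in favour of NSCs (difference -5.12, SE 0.064, limma adjusted p = 8.8e-09). The other multiplexin, Col15a1, reached at most 0.00727 in any sample. All of the Col18a1 signal in NSCs was assigned to the transcript with the upstream start, NM_009929. The transcript with the downstream start, NM_001109991, was listed at 0 in every sample but STO replicate 3 (0.145). The windows of both starts are printed because of this assignment, and the use of either start was not measured.
Col18a1 upstream start (chr10:77166501-77166780, minus strand): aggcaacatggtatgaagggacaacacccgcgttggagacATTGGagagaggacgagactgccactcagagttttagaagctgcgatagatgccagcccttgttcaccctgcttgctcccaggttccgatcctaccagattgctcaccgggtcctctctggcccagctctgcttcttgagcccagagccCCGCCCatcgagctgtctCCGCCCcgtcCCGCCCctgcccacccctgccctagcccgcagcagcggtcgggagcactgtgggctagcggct
Col18a1 downstream start (chr10:77113676-77113955, minus strand): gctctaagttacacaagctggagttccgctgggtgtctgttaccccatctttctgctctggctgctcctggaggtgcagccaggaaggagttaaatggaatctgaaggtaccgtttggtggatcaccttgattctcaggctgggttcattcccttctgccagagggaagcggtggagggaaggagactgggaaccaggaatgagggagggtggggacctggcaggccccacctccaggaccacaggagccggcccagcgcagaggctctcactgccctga

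The upstream window holds 15 CpG dinucleotides, GC boxes 61, 43 and 33 bases before the start and a CCAAT box 210 bases before it. The downstream window holds 5 CpG dinucleotides and none of the motifs searched.

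Col26a1 (chromosome 5, 137217630 to 137359085), a short collagen with an EMI domain, was at 3.56 and 2.48 FPKM in NSCs and listed at 0 in all STO replicates (difference -1.99, SE 0.110, limma adjusted p = 6.0e-06). Col28a1 (chromosome 6, 7947808 to 8142617), a von Willebrand A domain collagen known from peripheral nerve, was at 0.376 and 0.199 in NSCs and at 0.922, 1.05 and 1.03 in STO cells (difference 0.64, SE 0.071, limma adjusted p = 1.9e-04). Its STO mean was only just over 1, and without STO replicate 2 or without STO replicate 3 it was no longer tested. The transmembrane genes Col13a1, Col17a1, Col23a1 and Col25a1 and the anchoring fibril gene Col7a1 were below the level for testing. Col7a1 was at 0.0657 and 0.0757 in NSCs and at 0.487, 0.315 and 0.370 in STO cells, and Col17a1 at 0.0117 and 0.0160 against 0.290, 0.221 and 0.293. In all, 21 collagen genes stayed below the level, and the highest value of any of them in any sample was 0.648.

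Ratios of chains that share a trimer or a filament did not overlap between the cell types in any pair that could be formed in all samples. There were 6 such pairs. The share over ratios of other gene pairs was not computed. Levels of single genes did not overlap for 89.9% of all genes tested, so the separation sets these pairs apart little. A two-sided exact permutation test of the log2 ratio gave p = 0.2 for each of the 6 pairs, and 0.2 after Benjamini-Hochberg adjustment, which is the smallest value that 2 against 3 samples allow. The ratio of Col5a1 to Col5a2 varied between the NSC replicates themselves, 102 and 18.3, as Col5a2 was near 0 there, and was 0.757, 0.747 and 0.712 in STO cells.

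**Figure D4:**
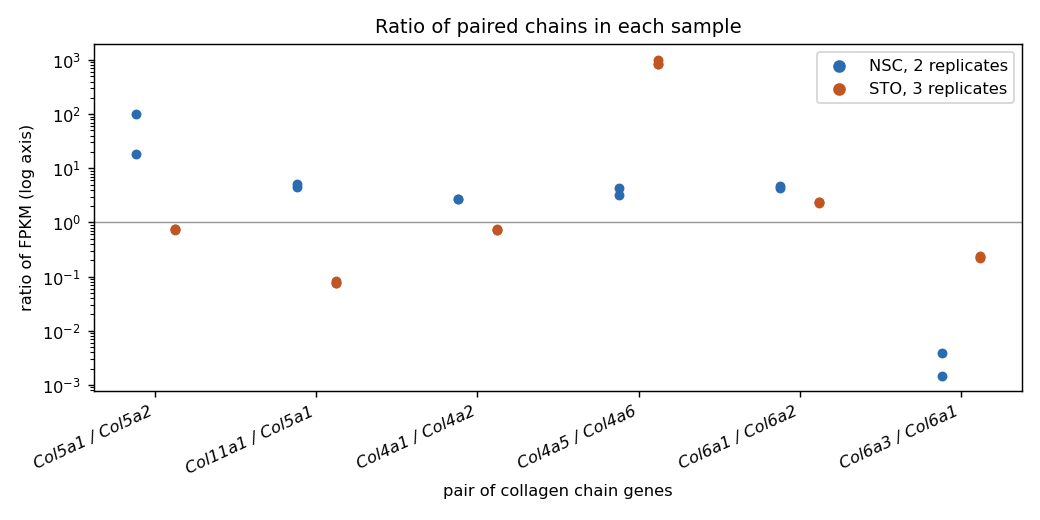
Ratio of FPKM of chains that assemble together (y axis, log scale) for 6 pairs of collagen genes (x axis), with 1 point a replicate (2 NSC, 3 STO) and a grey line at 1. The cell types are apart in each pair, and Col4a5 to Col4a6 ranges from 3.19 in an NSC replicate to 1009 in an STO replicate.

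Several collagen genes are neighbours in the genome. Within 500 kb there were 12 pairs of collagen genes, 6 of them with both genes tested, and of these 3 pairs moved in the same direction and 3 in opposite directions. The same direction was seen for Col4a1 and Col4a2, for Col3a1 and Col5a2, 24.6 kb apart, and for Col6a1 and Col6a2, 85.2 kb apart. Opposite directions were seen for Col4a5 and Col4a6 and for Col18a1 against Col6a1, 326 kb away, and Col6a2, 429 kb away. Col9a1 and Col19a1, 4.94 kb apart, were both present in NSCs and listed at 0 in STO cells, although only Col19a1 was tested.

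The machinery that makes and handles collagen was mostly, but not evenly, higher in STO cells. Of 45 genes listed for chain modification, folding and export, propeptide removal, crosslinking and reception, 37 were tested, 23 were higher, 11 were lower and 3 did not pass in the same limma fit, where the shares over all genes were 41.9% and 43.7%. All 7 genes of chaperoning and export were higher, by unequal amounts. Mia2, Mia3, Fkbp14, Sec23a and Tmem38b were 1.22- to 1.75-fold higher, and Mia2 only just passed (limma adjusted p = 0.043). Serpinh1 (HSP47), the chaperone of the triple helix, was at 35.9 and 30.1 FPKM in NSCs and at 344, 327 and 349 in STO cells (difference 3.33, limma adjusted p = 1.5e-07). Fkbp10, a prolyl isomerase that helps procollagen fold, was listed at 0 in both NSC replicates and was at 59.5, 59.5 and 62.2 in STO cells (difference 5.94, limma adjusted p = 5.1e-09).

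Of 15 genes of chain modification, 9 were higher, 4 lower and 2, Plod2 and Colgalt1, did not pass (differences 0.13 and 0.10, limma adjusted p = 0.050 and 0.15). P4ha2, a catalytic subunit of prolyl 4-hydroxylase, was at 3.13 and 2.55 FPKM in NSCs and at 29.4, 27.9 and 29.5 in STO cells (difference 2.97, limma adjusted p = 1.7e-07). Colgalt2, a galactosyltransferase of hydroxylysine, was at 8.62 and 8.19 in NSCs and at 0, 0.00954 and 0.0143 in STO cells (difference -3.22, limma adjusted p = 1.4e-08). The 4 that were lower in STO cells were Colgalt2, P3h2 (difference -1.95), P4ha1 (-0.87) and Ppib (-0.41).

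Of the 5 tested genes of propeptide removal, 1 was higher, 3 were lower and 1 did not pass. Pcolce, the gene that was higher, speeds the cutting of fibrillar procollagen and was at 1.22 and 1.19 FPKM in NSCs and at 555, 519 and 530.2 in STO cells (difference 7.92, limma adjusted p = 3.5e-09). Its paralog Pcolce2 was at 3.61 and 4.01 in NSCs and at 0.428, 0.207 and 0.436 in STO cells (difference -1.83, limma adjusted p = 3.7e-06). The procollagen N-proteinases Adamts3 (2.38 and 2.23 in NSCs, listed at 0 in all STO replicates) and Adamts14 (11.3 and 10.9 against 4.97, 4.68 and 4.70) were also lower in STO cells, with differences of -1.72 and -1.07 (limma adjusted p = 1.3e-07 and 3.9e-06). The procollagen C-proteinase Bmp1 did not pass (difference 0.08, limma adjusted p = 0.29). Of the 5 crosslinking genes, 4 were higher and 1 was lower. Lox, the lysyl oxidase that starts fibril crosslinks, was at 0.0844 and 0.130 in NSCs and at 222, 249.9 and 220.5 in STO cells (difference 7.71, limma adjusted p = 5.3e-09). Loxl1 was at 0.467 and 0.696 in NSCs and at 126, 124 and 122 in STO cells (difference 6.31, limma adjusted p = 7.3e-09). The crosslinking gene lower in STO cells was Loxl2, known for crosslinking type IV collagen, at 5.13 and 4.72 against 0.0856, 0.0299 and 0.0449 (difference -2.49, limma adjusted p = 6.6e-08). Loxl2, Adamts3, Adamts14 and Bmp1 were named after their values were seen.

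Of the receptors, Ddr2, a kinase that binds fibrillar collagen, was at 1.47 and 1.15 FPKM in NSCs and at 47.3, 49.5 and 48.9 in STO cells (difference 4.43, limma adjusted p = 2.2e-08). Mrc2, which takes up collagen for breakdown, was at 5.51 and 4.46 in NSCs and at 49.0, 47.5 and 45.9 in STO cells (difference 3.02, limma adjusted p = 2.3e-07). The other receptors that were tested, Itga1, Itgb1 and Ddr1, were lower in STO cells by 0.19 to 1.20 on the log2 scale, and Ddr1, which binds type IV as well as fibrillar collagen, stood at 92.96 and 88.1 in NSCs and at 40.2, 38.0 and 38.0 in STO cells.

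**Figure D5:**
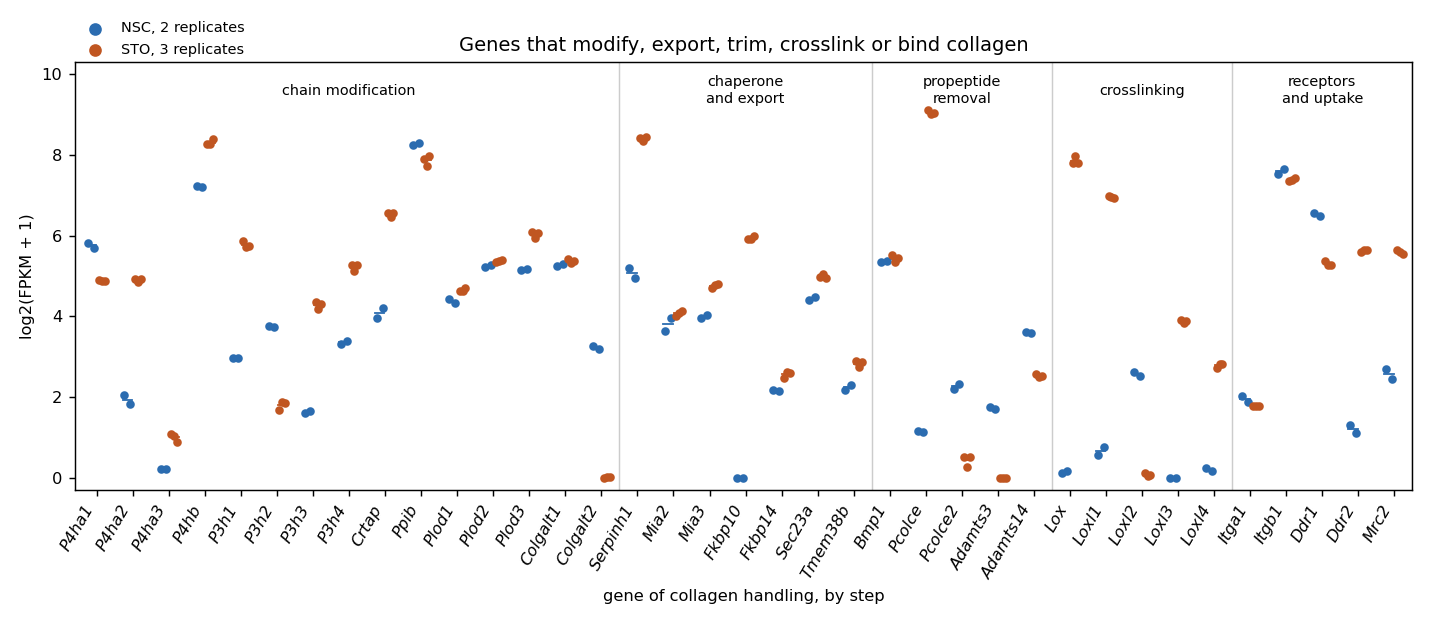
log2(FPKM + 1) (y axis) of the 37 tested genes that modify, export, trim, crosslink or bind collagen, grouped by step (x axis), with 1 point a replicate (2 NSC, 3 STO) and a short line at the mean. All 7 genes of chaperoning and export lie higher in STO cells on average, whereas the other groups hold genes of both directions, such as Lox and Loxl2.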

How the data were processed

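RNA-seq libraries of 2 NSC and 3 STO samples were prepared by the study with a stranded mRNA kit, read as paired ends, trimmed, mapped with Hisat2 to the mm9 build, and RefSeq transcripts were quantified by Cufflinks; the submitters' processing notes give version 4.8.2 for HISAT2 and 2.2.1 for Cufflinks. The authors deposited FPKM values and their confidence bounds for 40201 RefSeq transcripts per sample, so depth and length had been divided out, and no read counts were used here. Sums over all transcripts were 385485 to 446393 FPKM, and the deposited intervals imply 15223341 to 22271895 fragments per sample, if the distance from a value to its upper bound is 2 SD of a Poisson count. At loci with several isoforms such values fall short of the true fragments. A value of 0 can also be a failed estimate, though no collagen transcript had a status other than OK.

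Symbols came from a RefSeq table of GRCm38.p6, used for names only, which matched 39951 transcripts (99.4%), and FPKM were summed by symbol. Genes with a mean of at least 1 FPKM in NSC or STO (12292) were compared with limma 3.58.1 in R 4.3.3 (eBayes with a trend) on log2(FPKM + 1), with Benjamini-Hochberg adjustment over all of them and a threshold of 0.05. On this scale the change of low genes is understated. The script was tested on simulated data. Other steps used Python 3.11.15, pandas 2.3.3 and scipy 1.17.1.

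The collagen genes, their classes and the lists of handling genes and markers were chosen with earlier results of these data known. Named genes were every collagen at a mean of 1 FPKM or more, the 2 handling genes per group with the largest difference that passed, Serpinh1, and markers. Other collagens are given by range or in part by value. Handling genes named beside a count of 5 or fewer, and Mia2, Mia3, Fkbp14, Sec23a and Tmem38b, were picked after their values were seen. Alternatives changed the pseudocount (0.1), the filter, the scaling, the trend, the transcripts summed, a replicate block and the replicates included. The Hi-C and compartment data were not used here.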

Additional observations from a re-analysis of the deposited data

How the results depend on the processing

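No collagen gene that was called changed direction under any alternative. Without a filter on low values, all 44 collagens were tested, and 23 were called higher and 12 lower in STO cells (16 and 7 with the filter), beside 5919 higher and 6559 lower of 17724 genes; an absolute log2 difference of 1 or more beside the adjusted p left 2103 genes higher and 2617 lower over all genes, and 15 higher and 7 lower among the handling genes. Scaling each sample to the same sum moved the median log2 difference of all genes from -0.02 to 0.12 and gave 18 collagens higher and 8 lower of 26 tested, beside 6175 genes higher and 5083 lower of 13147, a balance that turned from 5153 higher and 5375 lower. Leaving out 1 replicate at a time gave 4704 to 5065 genes higher and 4900 to 5253 lower, 15 to 16 collagens higher and 7 lower throughout, and 21 to 24 handling genes higher and 9 to 11 lower; where 1 NSC replicate remained it was assumed to vary like the STO replicates. Among single collagens, the call of Col27a1 was lost without either NSC replicate and that of Col9a2 after quantile normalization, and the cause was not tested.

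A fit with the replicate block gave 4994 genes higher and 5252 lower, 16 and 7 collagens, and 23 and 10 handling genes, and no collagen call changed. Replicate 3 occurs only among STO samples, and collagens tested in both fits had the same differences as without STO replicate 3. The block was thus no separate check of them. The paper does not say that the numbers pair the samples. Deviations from the mean of the cell type correlated at 0.011 and 0.060 for the same number and at -0.060 to 0.046 for different numbers. With 2 NSC replicates their deviations mirror each other, so these correlations cannot decide whether the numbers pair samples.

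Depth limits the low values: a 0 in a library of 15223341 to 22271895 implied fragments does not show absence. The cell types differ in origin, medium and passage number, and these cannot be told apart.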
